A study of Mus musculus with 24 samples.

Results

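The IL-4 and IL-13 receptor axis was followed through 10 transcripts, the rows of the deposited gene table with the symbols Il4, Il13, Il4ra, Il13ra1, Il2rg, Pparg, Klf4, Egr2, Kdm6b and Ppargc1b, out of 35770 gene names. All 10 were present in the table, and 9 passed the filter on low values. Il13 did not pass it. RNA was from primary bone marrow-derived macrophages (BMDMs) of C57BL/6 mice, which had been differentiated with M-CSF, the growth factor that drives macrophage maturation. The macrophages received control media or conditioned media (CM) that had been harvested from LL2 cells, a Lewis lung carcinoma line of the mouse, either WT or with a knockout of KEAP1 (KEAP1 KO CM) or of NRF2 (NRF2 KO CM), together with vehicle or 100 nM CDDO-Me, a synthetic triterpenoid that activates NRF2, for 24 h. CM had been conditioned for 48 h and made up 75% of the final medium, and each of the 8 groups held 3 libraries. KEAP1 and NRF2 had been knocked out in the LL2 cells with CRISPR, and the BMDMs of all 8 groups carried no edit, so the macrophage libraries hold no check of either knockout. The library names of each KO CM carry the name of 1 line, so genotype and line cannot be told apart, and the labels do not tie replicates to separate mice, so the p-values measure the spread between these samples only.

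IL-4 binds the IL-4 receptor alpha chain (Il4ra), which pairs with the common gamma chain (Il2rg) in the type I receptor or with the IL-13 receptor alpha 1 chain (Il13ra1) in the type II receptor, and only the type II receptor also binds IL-13. Both receptors signal through JAK kinases to the transcription factor STAT6. In macrophages STAT6 drives the alternatively activated, or M2, program, in which the factors PPARγ (Pparg), KLF4, EGR2, the histone demethylase KDM6B and the coactivator PGC-1β (Ppargc1b) take part.

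Levels are given as TPM, a share of the library after correction for transcript length, so the number of reads behind a value is not known. Between 15702 and 18993 gene names were listed above 0 per library. The replicate 3 libraries of NRF2 KO CM/vehicle and NRF2 KO CM/CDDO-Me stood apart, with 15702 and 16299 names above 0 against at least 17817 in the other 22 libraries. Nqo1, a classical NRF2 target used here as a check of treatment, ranged from 2.16 to 5.16 TPM in the vehicle libraries and from 41.6 to 219 TPM in the CDDO-Me libraries. Summed levels of the 8 listed macrophage markers were high in every library, from 15000 to 38400 TPM. Most of this was Lyz2, with group means from 13260 TPM in WT CM/vehicle to 29510 TPM in NRF2 KO CM/CDDO-Me. The 7 fibroblast markers summed to between 162 and 2010 TPM. Of the markers of other blood cells, group means stayed under 1 TPM for 7 of 8 in the mast cell and basophil list, 3 of 5 in the eosinophil list, 2 of 7 in the T cell and ILC2 list, 4 of 5 in the B cell list and 3 of 5 in the neutrophil list. The highest group means in these lists were 9.98 TPM for Mcpt8, 5.93 TPM for Ccr3, 185 TPM for Il7r, 1.82 TPM for Cd79b and 56.8 TPM for S100a8. In such bulk RNA, fewer cells of a type and less RNA per cell cannot be told apart.

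Under vehicle, BMDMs given WT CM or KEAP1 KO CM had higher Il4ra, Klf4, Egr2 and Ppargc1b than naïve BMDMs, while NRF2 KO CM left all 9 tested members short of the threshold. Differences are given as log2 fold changes of scaled TPM plus a pseudocount of 1 with their standard errors (SE), and were called at a limma adjusted p under 0.05 over 13661 genes. WT CM against media called 5 of 9 members, 4 higher and 1 lower, where 7.23% of all tested genes were called. KEAP1 KO CM against media called 4 of 9, all higher, against 8.06% of all genes. For NRF2 KO CM against media 0 of 9 were called, 1 had an unadjusted p under 0.05, and 0.00732% of all genes were called. Compared directly with NRF2 KO CM, WT CM called 6 of 9 members (10.6% of all genes) and KEAP1 KO CM called 5 of 9 (9.04% of all genes). No member was called for KEAP1 KO CM against WT CM, and 0 of 9 had even an unadjusted p under 0.05. There 0% of all genes were called, with 350 genes at an unadjusted p under 0.05. Il2rg, at 91.8, 85.9 and 87.1 TPM in KEAP1 KO CM/vehicle, lay below each WT CM/vehicle library, with a difference of -0.40 (SE 0.20). It was the only 1 of 9 members without overlap there, and the share of all genes without overlap was not counted.

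CDDO-Me changed all 9 tested members in BMDMs given WT CM or KEAP1 KO CM, in the same directions in both, although the calls of Kdm6b in WT CM and of Ppargc1b in both were lost under some alternatives. Il4ra, Il13ra1, Il2rg, Kdm6b and Ppargc1b rose, and Il4, Pparg, Klf4 and Egr2 fell, where 27.9% of all tested genes were called in WT CM and 28.8% in KEAP1 KO CM. In media (6.02% of all genes called) and in NRF2 KO CM (9.61%) CDDO-Me called 2 of 9 members, and these were Egr2, which rose, and Pparg, which fell. In each of these media 4 of 9 members had an unadjusted p under 0.05, as had 2187 of all genes in media and 2866 in NRF2 KO CM. Among CDDO-Me treated BMDMs, WT CM differed from media in 7 of 9 members (26.8% of all genes), KEAP1 KO CM from media in 8 of 9 (22.6%) and WT CM from NRF2 KO CM in 6 of 9 (26.1%). NRF2 KO CM and media under CDDO-Me differed in 0 of 9 members (0.19% of all genes), of which 5 had an unadjusted p under 0.05, and KEAP1 KO CM and WT CM in 0 of 9 (0.0439%), of which 1 had an unadjusted p under 0.05. These comparisons share groups with each other and are not independent.

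The effect of CDDO-Me itself differed between media. The interaction with WT CM relative to media was called for 6 of 9 members (15.3% of all genes), as were the interactions with KEAP1 KO CM relative to media (14.8%) and with WT CM relative to NRF2 KO CM (13.4%). In each of the 3, Il4ra, Il13ra1 and Il2rg were shifted upwards and Pparg, Klf4 and Egr2 downwards. The effect in NRF2 KO CM against that in media was called for 0 of 9 members and 0% of all genes, with 1 member at an unadjusted p under 0.05. The effect in KEAP1 KO CM against that in WT CM was also called for 0 of 9 members and 0% of all genes, with 0 members at an unadjusted p under 0.05.

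**Figure D1:**
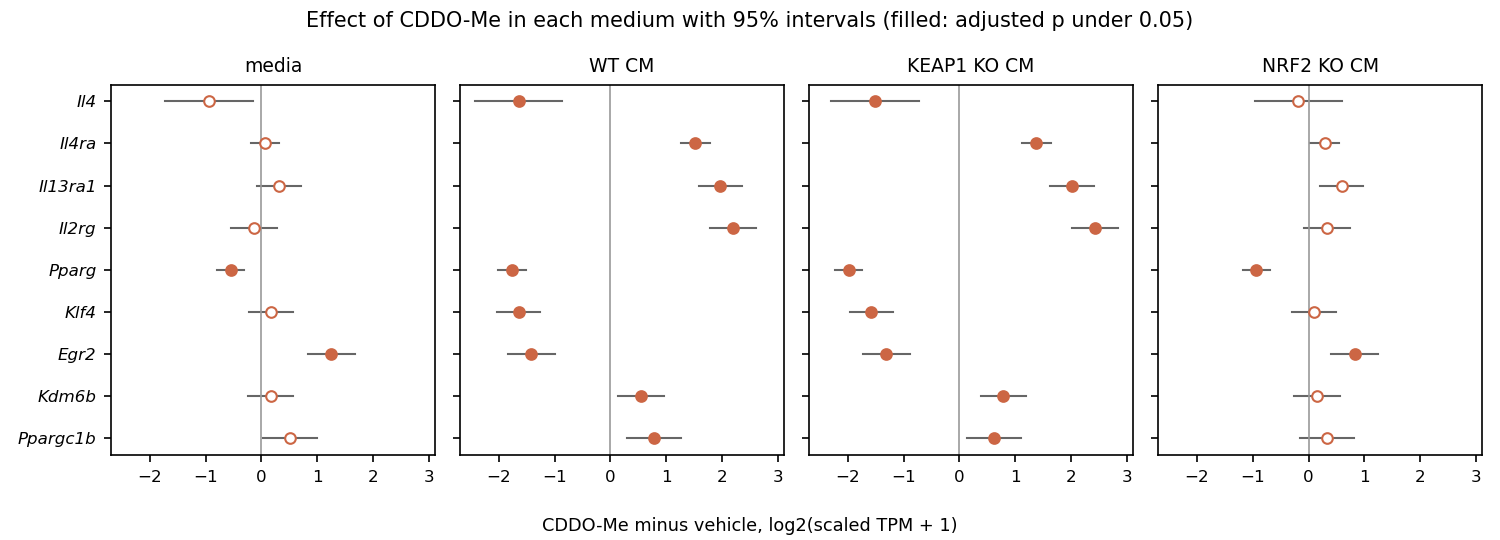
CDDO-Me minus vehicle for the 9 tested members in each medium, as log2 fold changes of scaled TPM plus 1 (x axis) with 95% intervals from the limma fit (bars), filled where the adjusted p was under 0.05. All 9 points are filled in WT CM and KEAP1 KO CM and only Egr2 and Pparg in media and NRF2 KO CM, and Egr2 lies on opposite sides of 0 in these pairs of panels.

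Of the ligands, Il13 was all but absent. It was listed at 0 in 20 libraries and above 0 in 4, of which WT CM/vehicle replicate 3 was highest at 0.128 TPM. It was not tested.

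Il4, in contrast, was listed above 0 in all 24 libraries. It stood at 18.0, 19.3 and 24.6 TPM in media/vehicle, 15, 13.8 and 18.5 TPM in WT CM/vehicle and 14.3, 13.2 and 13.5 TPM in KEAP1 KO CM/vehicle. With CDDO-Me it stood at 6.21, 3.55 and 2.71 TPM in WT CM and 3.48, 3.39 and 4.10 TPM in KEAP1 KO CM, below every vehicle library of the same medium. Il4 fell by 1.65 on the log2 scale (SE 0.37, adjusted p = 0.002) with CDDO-Me in WT CM and by 1.51 (SE 0.37, adjusted p = 0.00384) in KEAP1 KO CM. In media it stood at 13.3, 8.37 and 9.10 TPM with CDDO-Me, lower than each vehicle library, but the difference of -0.94 (SE 0.37) had an adjusted p of 0.186. That difference was called in 2 of 16 alternatives. In NRF2 KO CM the vehicle libraries were 19.2, 25.2 and 4.20 TPM and the CDDO-Me libraries 12.8, 10.4 and 10.2 TPM. The difference was -0.18 (SE 0.37, adjusted p = 0.858). This effect minus that in media was 0.76 (SE 0.53), and it ranged from 0.075 to 1.17 over 22 alternatives. Of the NRF2 KO CM/vehicle libraries, those at 19.2 and 25.2 TPM lay above each CDDO-Me library and the one at 4.20 TPM lay below. Replicate 3 of the vehicle group, one of the libraries that stood apart, decided the direction in which that group differed from media/vehicle and from WT CM/vehicle. With this library, Il4 in NRF2 KO CM/vehicle was -0.61 (SE 0.37) on the log2 scale from media/vehicle, and without it the difference was 0.063.

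The Il4 values need care because of where the gene lies. Il4 occupies chr11:53493809-53509496 on the minus strand of GRCm39, and the annotation gives it 4 transcripts. The 3 coding transcripts lie at position 53503287 and above, but the transcript Il4-202, with no defined coding sequence, reaches into the end of Kif3a, a kinesin motor subunit gene on the opposite strand, and shares 179 of its 541 bases with Kif3a exons. Reads from the shared stretch cannot be told apart unless strand was used, and the use of strand in the quantification was not stated. Kif3a was listed at 40.7, 37.4 and 43.8 TPM in WT CM/vehicle and at 10.8, 11.3 and 7.92 TPM in WT CM/CDDO-Me, and it fell by 1.81 on the log2 scale (SE 0.24, adjusted p = 6.52e-06). Over 24 libraries, which share their groups and scaling, Il4 and Kif3a had a Pearson r of 0.69 on log2 values, and 0.94 over the 22 libraries without both NRF2 KO CM replicate 3 libraries. By r over the 24 libraries Kif3a ranked 599 among all tested genes. In NRF2 KO CM/vehicle replicate 3, Kif3a was at its highest, 96.3 TPM, while Il4 was at 4.20 TPM. Il4 amounted to between 4.36% and 57.7% of Kif3a, with a median of 35.1%. Il5, the other type 2 cytokine gene of this cluster, did not exceed 0.107 TPM in any library, and of the mast cell and basophil markers only Mcpt8 had a group mean above 1 TPM, with 9.98 TPM in NRF2 KO CM/vehicle, 1.25 TPM in WT CM/vehicle and 0.256 TPM in WT CM/CDDO-Me. Their part in the Il4 values was not tested.

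**Figure D2:**
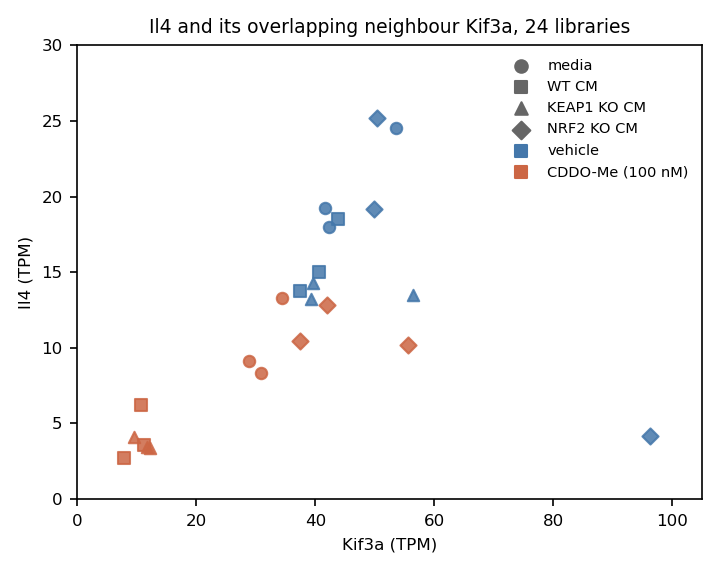
Il4 (y axis, TPM) against Kif3a (x axis, TPM) in each of the 24 libraries, with marker shape for the medium and colour for vehicle or CDDO-Me. With CDDO-Me, the 3 libraries of WT CM and the 3 of KEAP1 KO CM lie at the lower left, and NRF2 KO CM/vehicle replicate 3 sits apart at 96.3 TPM of Kif3a and 4.20 TPM of Il4.

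The 3 receptor chains were all expressed in naïve BMDMs, with Il2rg at 77.4 ± 11.2 TPM, Il4ra at 59.7 ± 3.64 TPM and Il13ra1 at 14.7 ± 1.72 TPM (SD, n = 3). Since all 3 rose together with CDDO-Me in WT CM and KEAP1 KO CM, the 250 bases before their RefSeq start sites are shown. In GRCm39 they lie at chr7:125151193-125151442 (plus strand), chrX:35375511-35375760 (plus strand) and chrX:100311862-100312111 (minus strand), and they are written in the direction of the gene, with any motif match in capitals. Matches to 5 motifs are given, searched on both strands, and the motifs can overlap one another. They were the STAT6 site (TTC and GAA with 4 bases between), the interferon response type repeat (GAAA repeated after 2 bases), the core of the antioxidant response element bound by NRF2, TGACNNNGC, the EGR site GCGTGGGCG and the PPAR element (AGGTCA repeated after 1 base).
Il4ra: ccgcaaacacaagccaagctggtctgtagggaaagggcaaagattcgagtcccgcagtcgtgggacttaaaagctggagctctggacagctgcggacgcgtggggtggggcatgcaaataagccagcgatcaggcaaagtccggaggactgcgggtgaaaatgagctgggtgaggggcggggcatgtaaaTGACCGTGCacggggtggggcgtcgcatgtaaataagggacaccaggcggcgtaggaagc
Il13ra1: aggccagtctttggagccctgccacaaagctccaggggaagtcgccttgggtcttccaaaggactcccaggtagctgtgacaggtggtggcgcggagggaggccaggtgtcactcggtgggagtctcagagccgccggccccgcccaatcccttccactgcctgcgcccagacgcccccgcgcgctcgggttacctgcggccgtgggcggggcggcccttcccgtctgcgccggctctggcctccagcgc
Il2rg: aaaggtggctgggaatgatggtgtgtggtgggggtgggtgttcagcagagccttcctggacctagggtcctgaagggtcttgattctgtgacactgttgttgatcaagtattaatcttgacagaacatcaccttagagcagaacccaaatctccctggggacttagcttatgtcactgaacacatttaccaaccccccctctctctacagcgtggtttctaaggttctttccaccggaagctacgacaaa
The capitals in Il4ra mark a match to TGACNNNGC, and the Il13ra1 and Il2rg stretches held no match to any of these 5 motifs. Among 32851 promoters of the same length, TGACNNNGC was found in 10.2%, the STAT6 site in 5.85%, the interferon response type repeat in 2.98%, GCGTGGGCG in 0.536% and the PPAR element in 0.0335%. The table listed 15 promoters for 8 of the 10 members, so some members had several promoters and the 15 are not independent. TGACNNNGC was found in 6 of the 15 (Egr2, Il4, Il4ra and Pparg), the STAT6 site and the interferon response type repeat in Il4, and the others in 0. These matches describe letters in a window and no measured binding.

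Il4ra, the chain shared by both receptors, was raised by WT CM and KEAP1 KO CM and raised further there by CDDO-Me. Under vehicle it stood at 59.2, 56.4 and 63.6 TPM in media, 140, 127 and 95.3 TPM in WT CM and 141, 137 and 139 TPM in KEAP1 KO CM. The groups did not overlap with media, and on the log2 scale Il4ra rose by 1.06 (SE 0.12, adjusted p = 8.61e-06) with WT CM and 1.21 (SE 0.12, adjusted p = 1.49e-06) with KEAP1 KO CM. With CDDO-Me the WT CM libraries reached 349, 340 and 259 TPM and the KEAP1 KO CM libraries 351, 352 and 269 TPM, all above the highest vehicle library. The rise with CDDO-Me was 1.52 (SE 0.12, adjusted p = 9.72e-09) in WT CM and 1.37 (SE 0.12, adjusted p = 4.02e-08) in KEAP1 KO CM, or 2.86-fold and 2.59-fold. In media it stood at 64.0, 64.1 and 57.0 TPM with CDDO-Me, a range that overlapped with vehicle, and the difference was 0.06 (95% interval -0.20 to 0.32). NRF2 KO CM gave intermediate values of 76.7, 75.0 and 69.6 TPM with vehicle and 92.1, 85.3 and 87.2 TPM with CDDO-Me, groups that did not overlap but differed by 0.29 (SE 0.12) with an adjusted p of 0.177.

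Il13ra1, the chain particular to the type II receptor, was lower with WT CM under vehicle and rose with CDDO-Me in WT CM and KEAP1 KO CM. Its vehicle libraries were at 14.6, 16.5 and 13.0 TPM in media, 8.70, 9.75 and 5.03 TPM in WT CM, 11, 12.6 and 6.62 TPM in KEAP1 KO CM and 17.4, 18.1 and 16.4 TPM in NRF2 KO CM. WT CM lay below media in all 3 libraries, and Il13ra1 fell by 0.80 on the log2 scale (SE 0.19, adjusted p = 0.00997). That call was lost without media/vehicle replicate 2 or WT CM/vehicle replicate 3, at adjusted p of 0.0571 and 0.0733, and the fall of 0.54 with KEAP1 KO CM had an adjusted p of 0.0925. Against NRF2 KO CM, Il13ra1 was lower in WT CM (fell by 1.03, adjusted p = 0.00118) and in KEAP1 KO CM (fell by 0.76, adjusted p = 0.0133, and 0.0889 without KEAP1 KO CM/vehicle replicate 3). Over all alternatives these calls held in 15 and 14 of 16, at adjusted p up to 0.12 and 0.252. With CDDO-Me Il13ra1 reached 29.4, 31.7 and 28.2 TPM in WT CM and 41.3, 39.7 and 33.6 TPM in KEAP1 KO CM, and no vehicle library of any medium came above 18.1 TPM. The rise was 1.97 (SE 0.19, adjusted p = 8.24e-08) in WT CM and 2.02 (SE 0.19, adjusted p = 6.02e-08) in KEAP1 KO CM, or 3.92-fold and 4.06-fold. In NRF2 KO CM the CDDO-Me libraries, at 25.3, 24.2 and 28.7 TPM, lay above the vehicle libraries, with a difference of 0.59 (SE 0.19) and an adjusted p of 0.0527. In media it stood at 19.6, 20.3 and 15.3 TPM with CDDO-Me, overlapping with vehicle, and the difference of 0.32 (SE 0.19) had an adjusted p of 0.487.

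Il2rg, the common gamma chain that also serves the receptors for IL-2, IL-7, IL-9, IL-15 and IL-21, changed most of the 3 with CDDO-Me in WT CM and KEAP1 KO CM. Its vehicle libraries ranged from 65.1 to 130 TPM over all media. WT CM/vehicle, at 130, 106 and 100 TPM, lay above media/vehicle, at 87.1, 80.1 and 65.1 TPM. The difference, 0.60 on the log2 scale (SE 0.20), had an adjusted p of 0.0766 and was called in 3 of 16 alternatives. With CDDO-Me the WT CM libraries were at 552, 458 and 412 TPM and the KEAP1 KO CM libraries at 508, 420 and 366 TPM, whereas media stood at 78.7, 72.2 and 58.8 TPM and NRF2 KO CM at 101, 94.3 and 143 TPM. The rise was 4.60-fold in WT CM (log2 2.20, SE 0.20, adjusted p = 3.51e-08) and 5.40-fold in KEAP1 KO CM (log2 2.43, SE 0.20, adjusted p = 8.57e-09). In media Il2rg differed by -0.13 (95% interval -0.54 to 0.28).

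**Figure D3:**
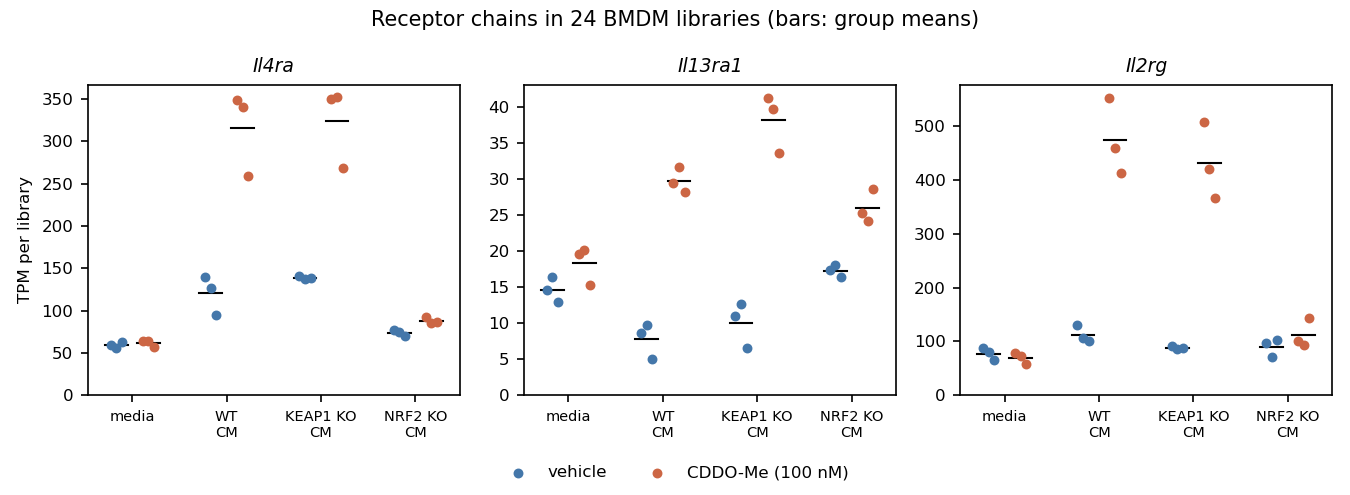
TPM of Il4ra, Il13ra1 and Il2rg (y axis, separate scale per gene) in each library of the 4 media with vehicle or CDDO-Me, with bars for the means of 3 libraries. In WT CM and KEAP1 KO CM every CDDO-Me library lies above every vehicle library, and Il13ra1 under vehicle is lower in these media than in media alone or NRF2 KO CM.

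Of the transcription factors, Klf4 rose with WT CM and KEAP1 KO CM and was back at the naïve level with CDDO-Me. It was listed at 9.15, 10.6 and 9.93 TPM in media/vehicle, 35.5, 35.8 and 39.7 TPM in WT CM/vehicle and 35.1, 43.5 and 40.9 TPM in KEAP1 KO CM/vehicle. In all other groups, NRF2 KO CM and every CDDO-Me group included, the libraries lay between 6.68 and 13.4 TPM. Klf4 was 3.65-fold higher with WT CM (log2 1.87, SE 0.19, adjusted p = 1.01e-06) and 3.73-fold higher with KEAP1 KO CM (log2 1.90, SE 0.19, adjusted p = 8.47e-07) than with media. CDDO-Me lowered it by 1.64 on the log2 scale in WT CM (SE 0.19, adjusted p = 8.37e-07) and by 1.58 in KEAP1 KO CM (SE 0.19, adjusted p = 1.4e-06). Under CDDO-Me, WT CM and media differed by 0.05 (95% interval -0.34 to 0.44).

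Egr2 went in opposite directions with CDDO-Me depending on the medium. Under vehicle it stood at 28.6, 35.0 and 50.5 TPM in media and 27.4, 31.9 and 45.0 TPM in NRF2 KO CM, below the 70.8, 81.2 and 101 TPM in WT CM and the 62.0, 70.9 and 71.3 TPM in KEAP1 KO CM. The rise over media was 1.22 (SE 0.20, adjusted p = 0.000485) with WT CM and 0.86 (SE 0.20, adjusted p = 0.00953) with KEAP1 KO CM, the latter with an adjusted p of 0.0771 without media/vehicle replicate 1. With CDDO-Me the order turned. Egr2 reached 83.4, 91.5 and 90.4 TPM in media and 56.4, 71.7 and 53.3 TPM in NRF2 KO CM, while it stood at 25.2, 32.3 and 27.1 TPM in WT CM and 25.8, 26.5 and 19.5 TPM in KEAP1 KO CM. In each of the 4 media the vehicle and CDDO-Me libraries did not overlap. CDDO-Me raised Egr2 by 1.25 (SE 0.20, adjusted p = 0.000435) in media and by 0.83 (SE 0.20, adjusted p = 0.0106) in NRF2 KO CM, and it fell by 1.42 (SE 0.20, adjusted p = 1.54e-05) in WT CM and by 1.31 (SE 0.20, adjusted p = 3.57e-05) in KEAP1 KO CM. The rise in NRF2 KO CM was no longer called without NRF2 KO CM/vehicle replicate 1 (adjusted p = 0.0574) or NRF2 KO CM/CDDO-Me replicate 2 (adjusted p = 0.0514). Over all alternatives that call held in 13 of 16, at adjusted p up to 0.279. The interaction of WT CM with media was -2.67 (SE 0.28, adjusted p = 1.01e-06), the largest in size of the 9 members.

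Pparg was lowered by CDDO-Me in every medium. Its vehicle libraries ranged from 63.0 to 90.3 TPM. The CDDO-Me libraries stood at 49.0, 51.3 and 44.6 TPM in media, 34.0, 34.0 and 31.3 TPM in NRF2 KO CM, 20.0, 23.9 and 24.4 TPM in WT CM and 14, 19.3 and 17.4 TPM in KEAP1 KO CM, and each was below every vehicle library. Pparg fell by 0.55 (SE 0.12, adjusted p = 0.00507) in media, by 0.93 (SE 0.12, adjusted p = 1.88e-05) in NRF2 KO CM, by 1.76 (SE 0.12, adjusted p = 3.97e-10) in WT CM and by 1.98 (SE 0.12, adjusted p = 7.25e-11) in KEAP1 KO CM. The call in NRF2 KO CM held in 15 of 16 alternatives, at adjusted p up to 0.0551. The fall was larger in WT CM than in media by 1.21 on the log2 scale (interaction -1.21, SE 0.16, adjusted p = 2.03e-05). Without CDDO-Me, Pparg in WT CM, at 81.8, 88.8 and 90.3 TPM, lay above media but was not called (log2 0.33, SE 0.12, adjusted p = 0.0981). Against NRF2 KO CM it was higher by 0.47 (SE 0.12, adjusted p = 0.013, and 0.0673 without WT CM/vehicle replicate 3). Over all alternatives that call held in 14 of 16, at adjusted p up to 0.233.

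**Figure D4:**
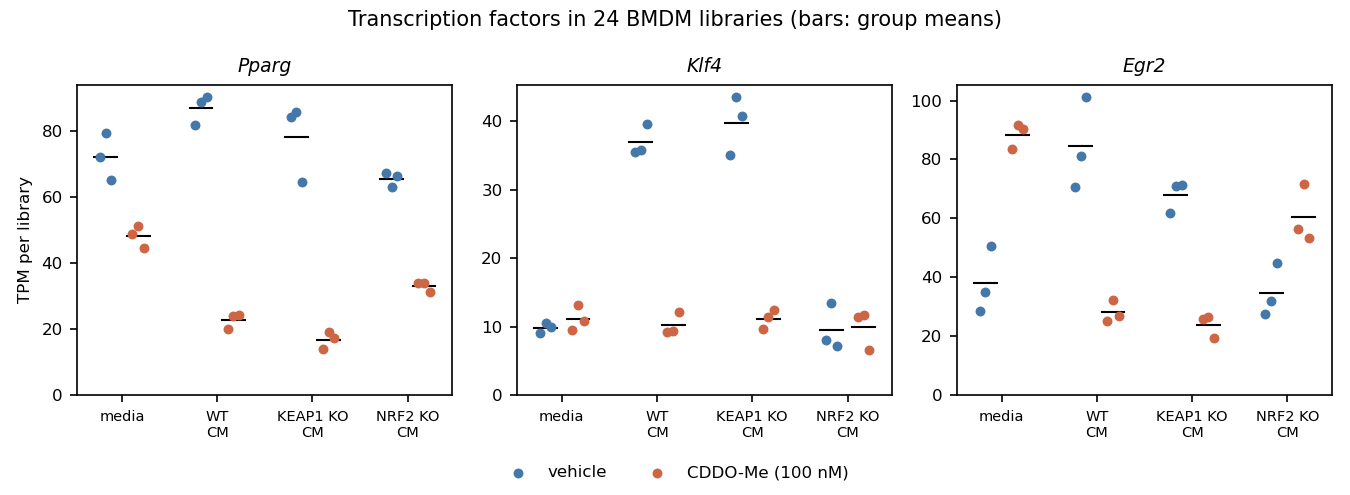
TPM of Pparg, Klf4 and Egr2 (y axis, separate scale per gene) in each library, arranged by medium with vehicle and CDDO-Me side by side, with bars for the means of 3 libraries. Klf4 is raised only in the vehicle libraries of WT CM and KEAP1 KO CM, Pparg is lower with CDDO-Me throughout, and Egr2 is higher with CDDO-Me in media and NRF2 KO CM and lower in WT CM and KEAP1 KO CM.

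Ppargc1b, the PGC-1β coactivator of fatty acid oxidation, was scarce but higher with WT CM and KEAP1 KO CM. It was at 0.991, 1.01 and 1.33 TPM in media/vehicle, 2.77, 2.70 and 4.62 TPM in WT CM/vehicle and 3.05, 2.97 and 3.64 TPM in KEAP1 KO CM/vehicle. Both lay above media, with log2 fold changes of 1.06 (SE 0.23, adjusted p = 0.00611) and 0.99 (SE 0.23, adjusted p = 0.00958), which understate changes at such low levels because of the pseudocount. NRF2 KO CM stood at 1.23, 1.14 and 0.579 TPM with vehicle and 1.21, 1.41 and 1.72 TPM with CDDO-Me, and was not called against media in either. With CDDO-Me it stood at 4.81, 5.10 and 7.99 TPM in WT CM and 4.07, 4.33 and 6.60 TPM in KEAP1 KO CM, a rise of 0.79 (SE 0.23, adjusted p = 0.014) and 0.62 (SE 0.23, adjusted p = 0.0498). Unlike Klf4, Egr2 and Pparg, it thus had its highest means in WT CM and KEAP1 KO CM with CDDO-Me. In media Ppargc1b stood at 1.44, 2.02 and 2.69 TPM with CDDO-Me, above each vehicle library of media. The difference of 0.52 (SE 0.23) had an adjusted p of 0.259. The effect of CDDO-Me was larger than in media by 0.27 (SE 0.33) in WT CM and 0.10 (SE 0.33) in KEAP1 KO CM, and neither was called. The rise with CDDO-Me in KEAP1 KO CM was lost without any 1 of KEAP1 KO CM/vehicle replicates 1, 2 and 3 or KEAP1 KO CM/CDDO-Me replicate 3, at adjusted p from 0.0546 to 0.274. It held in 6 of 15 alternatives, and was also lost with no filter, no scaling, either smaller pseudocount and only the compared groups in the fit, at adjusted p from 0.0577 to 0.0962. That in WT CM was lost without WT CM/vehicle replicate 1 or 2 or WT CM/CDDO-Me replicate 3, at adjusted p from 0.0698 to 0.103.

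Kdm6b, which removes the repressive H3K27 methyl mark, varied least, with group means from 5.06 TPM in media/vehicle to 9.32 TPM in KEAP1 KO CM/CDDO-Me. CDDO-Me raised it in WT CM from 5.28, 5.12 and 6.78 TPM to 7.68, 7.14 and 9.34 TPM, and in KEAP1 KO CM from 5.18, 4.63 and 7.21 TPM to 8.41, 8.35 and 11.2 TPM. The groups did not overlap in either medium, and the log2 fold changes were 0.55 (SE 0.19, adjusted p = 0.041) and 0.79 (SE 0.19, adjusted p = 0.00378). The call in WT CM was lost without WT CM/vehicle replicate 1 or 2 or WT CM/CDDO-Me replicate 1 or 3, at adjusted p from 0.0861 to 0.179. Over all alternatives this call held in 10 of 16, so some processing alternatives ended it too. Genes on the opposite strand covered 286 of the 6954 exonic bases of Kdm6b (Kdm6bos, 4.11%), 5.72% of those of Il4ra (Gm44876), 4.83% of Ppargc1b (Gm46627), 1.81% of Pparg (Gm67351) and 1.14% of Il13ra1 (Gm42406), and without strand their reads cannot be told apart from those of the members.

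Ordered by mean level over the 8 groups, neighbours often overlapped. Kdm6b had overlapping libraries in 7 of 7 neighbouring pairs, Egr2, Il2rg, Klf4 and Ppargc1b in 6 of 7, Il4 in 5, Il13ra1 in 4 and Il4ra and Pparg in 3 of 7. For Il4ra the order ran from KEAP1 KO CM/CDDO-Me (324 TPM) and WT CM/CDDO-Me (316 TPM), which overlapped, to KEAP1 KO CM/vehicle and WT CM/vehicle (139 and 121 TPM), which also overlapped, and then to NRF2 KO CM/CDDO-Me, NRF2 KO CM/vehicle and the pair of media groups. Il13ra1 was highest in KEAP1 KO CM/CDDO-Me, at 38.2 ± 4.09 TPM, and this group did not overlap with WT CM/CDDO-Me, at 29.8 ± 1.81 TPM (SD, n = 3), although the difference of 0.32 (SE 0.19) had an adjusted p of 1. The members fell into opposed patterns over the 24 libraries, which share 8 groups and 1 scaling. Il4ra and Il2rg were most alike (Pearson r = 0.93 on log2 values), followed by Il4ra and Ppargc1b (0.85), whereas Il13ra1 and Pparg were most opposed (-0.92). Of all tested genes, those closest to Il4ra were Dnase1l3 (0.97), Stat2 (0.97) and St7 (0.96), and those closest to Il2rg were Ppt1, Gbp7 and Tmbim6 (0.98 each). The closest to Il13ra1 were Twsg1 (0.96), Slc25a37 (0.95) and Dst (0.94), and to Klf4 were Chil3 (0.97), Ap2m1 (0.96) and Cdh1 (0.96). Pparg was closest to Arhgap10, Plin2 and Dhrs3 (0.96, 0.96 and 0.95), Egr2 to Klf9, Tspan5 and Mcf2l (0.91, 0.90 and 0.87), Kdm6b to Trim52, Dnm2 and Adora3 (0.92, 0.90 and 0.90), Ppargc1b to Slc25a5, Myo1g and Cox7a2 (0.96, 0.95 and 0.95) and Il4 to Gna12, Ctsd and C5ar2 (0.92, 0.91 and 0.91).

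The receptor signaling partners, 12 genes all tested, changed in both directions. With WT CM 4 rose and 1 fell, with a median log2 fold change of 0.09 against 0.01 over all tested genes, and KEAP1 KO CM gave the same counts. Of all tested genes, 7.23% were called with WT CM and 8.06% with KEAP1 KO CM. Il13ra2, the decoy receptor that binds IL-13 without signaling, was at most 0.0468 TPM in media/vehicle, 13.7, 16.0 and 7.39 TPM in WT CM/vehicle, 25.9, 21.5 and 16.0 TPM in KEAP1 KO CM/vehicle, and at most 0.0371 TPM in those media with CDDO-Me. Socs1, a feedback inhibitor of JAK signaling, rose in 2 steps. It was at 1.20, 0.978 and 0.652 TPM in media/vehicle, 22.3, 23.1 and 25.8 TPM in WT CM/vehicle and 111, 111 and 125 TPM in WT CM/CDDO-Me, a rise of 3.71 (SE 0.21, adjusted p = 3.06e-10) and then of 2.37 (SE 0.21, adjusted p = 3.51e-08). Cish, another SOCS family member induced through STAT factors, shared the first step but not the second. It was at 0.774, 0.536 and 0.520 TPM in media/vehicle and was called higher with WT CM. Cish stood at 19.2, 22.3 and 31.7 TPM in WT CM/vehicle and 1.21, 0.992 and 1.62 TPM in WT CM/CDDO-Me, and it fell by 3.39 (SE 0.31, adjusted p = 3.92e-08). Stat6 itself stood between 76.0 and 143 TPM in every library and was not called for WT CM (log2 -0.19, SE 0.12, adjusted p = 0.484) or for CDDO-Me in WT CM (0.05, SE 0.12, adjusted p = 0.821).

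**Figure D5:**
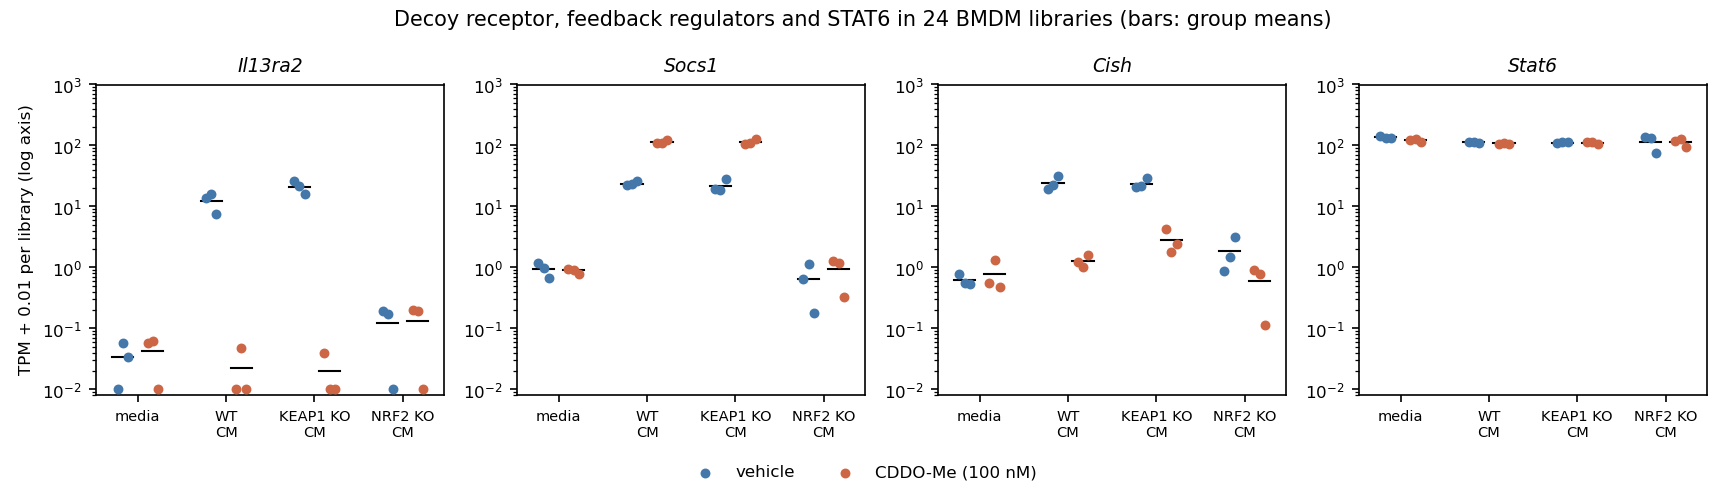
TPM plus 0.01 on a log axis for the decoy receptor Il13ra2, the feedback regulators Socs1 and Cish, and Stat6 in each of the 24 libraries, with bars for the means of 3 libraries. Il13ra2 and Cish are high only in the vehicle libraries of WT CM and KEAP1 KO CM, Socs1 is highest with CDDO-Me in those media, and Stat6 varies little.

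CDDO-Me in WT CM raised 5 of the 12 signaling partners and lowered 4, with a median of 0.22, and the same 5 and 4 genes were called in KEAP1 KO CM. Ptpn6, the phosphatase SHP-1, was among those that rose, from 148 ± 13.2 TPM to 547 ± 101 TPM (SD, n = 3). In media 0 of 12 and in NRF2 KO CM 1 of 12, Ptpn1, were called, near the shares of all tested genes (6.02% and 9.61%). In WT CM and KEAP1 KO CM these shares were 27.9% and 28.8%. Of the other common gamma chain cytokines and receptors, 5 of 11 were tested, and CDDO-Me in WT CM raised Il15, Il15ra and Il21r and lowered Il7r. Il15ra went from 6.60 ± 0.618 to 38.5 ± 2.57 TPM (SD, n = 3).

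The IL-4 induced transcripts, 14 genes known to mark alternatively activated macrophages, rose with WT CM and KEAP1 KO CM and mostly fell there with CDDO-Me. With WT CM 13 of 14 rose and with KEAP1 KO CM 14 of 14, with medians of 3.42 and 3.24, while NRF2 KO CM changed 0 of 14. Of all tested genes, 7.23%, 8.06% and 0.00732% were called in these comparisons. Retnla, which encodes the secreted protein FIZZ1, had the value 0 in each naïve library and averaged 2335 ± 811 TPM in WT CM/vehicle (SD, n = 3). Arg1, the arginase of M2 macrophages, averaged 0.172 ± 0.113 TPM and 663 ± 112 TPM in the same groups. With CDDO-Me in WT CM 12 of 14 fell, with a median of -2.71, in KEAP1 KO CM 13 of 14, and Retnla was again listed at 0 in every library. Named after their values were seen, Pdcd1lg2 and Tgm2 were the exceptions, with changes of -0.60 (SE 0.29, adjusted p = 0.146) and -0.69 (SE 0.42, adjusted p = 0.266) in WT CM. In media CDDO-Me lowered 1 of 14, Tgm2, where 6.02% of all tested genes were called.

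Of the PPARγ partners and targets 9 of 10 were tested. WT CM changed 0 of them and KEAP1 KO CM lowered Fabp4, where 7.23% and 8.06% of all tested genes were called. The share was 27.9% for CDDO-Me in WT CM. CDDO-Me in WT CM raised Ppard and lowered Fabp4, Plin2 and Angptl4, with Fabp4, a fatty acid binding protein gene under PPARγ control, at 248 ± 43.6 TPM with vehicle and 15.6 ± 3.04 TPM with CDDO-Me (SD, n = 3). In media Fabp4 and Plin2 also fell, whereas the PPARγ target Cd36 rose by 1.04 (SE 0.27, adjusted p = 0.0261), opposite to Pparg itself. Of the 8 Egr and Klf relatives, WT CM raised Klf10 and lowered Egr3, and CDDO-Me in WT CM raised Klf2, Klf6 and Klf13 and lowered Egr1 and Klf10. Of the Kdm6b and PGC-1 relatives, 7 of 8 tested, Irf4, a factor induced by IL-4, rose with WT CM from 0.989 ± 0.231 to 12 ± 5.52 TPM and fell to 0.522 ± 0.575 TPM with CDDO-Me (SD, n = 3). Among the 4 tested neighbours of Il4 and Il13 on chromosome 11, none changed with CM (7.23% of all genes called with WT CM, 8.06% with KEAP1 KO CM). There CDDO-Me in WT CM raised Irf1 and lowered Kif3a and Septin8. Irf1, an interferon-induced factor, stood at 74.6, 56.8 and 112 TPM in WT CM/vehicle and 890, 915 and 986 TPM in WT CM/CDDO-Me.

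Markers of cell identity moved with the same comparisons, where CDDO-Me in WT CM called 27.9% of all tested genes. CDDO-Me in WT CM raised the macrophage markers Fcgr1 and Mertk and lowered Cd68, with Fcgr1, the high affinity IgG receptor, at 50.5 ± 1.27 TPM with vehicle and 479 ± 27.2 TPM with CDDO-Me (SD, n = 3). The summed fibroblast markers ranged from 525 to 1100 TPM in WT CM/vehicle and from 201 to 575 TPM in WT CM/CDDO-Me, with 1 of 7, Pdgfra, called lower. The T cell and ILC2 list summed to between 124 and 191 TPM and to between 39.5 and 52.5 TPM in these groups, most of it Il7r, with Cd3e and Cd3g under 1 TPM. Of its 5 tested markers, 3 fell with CDDO-Me in WT CM (Gata3, Il1rl1 and Il7r), and so did the eosinophil marker Ccr3, 1 of 2 tested, while the neutrophil marker S100a8, 1 of 2 tested, rose. Their part in the results for the members was not tested.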

How the data were processed

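Poly-A RNA from 24 BMDM libraries was measured, and the label of each library gave its group and replicate number. The authors quantified reads with Kallisto on GRCm39, and the deposited values are length-scaled TPM, although the file is named as counts. Depth per library is therefore unknown, and no interval that needs it is given. A line without a gene name, 0.0199% to 0.0635% of TPM, was left out. As the unit is not counts, the count test named in the design was not used. TPM were divided by trimmed mean of M values factors (trims of 30% and 5%, unweighted), log2 of the result plus 1 was taken, and genes above 1 TPM in at least 3 libraries were fitted with limma 3.58.1 in R 4.3.3 (8 group means, 16 residual degrees of freedom, eBayes with trend). P-values are two-sided and adjusted by the Benjamini-Hochberg method over 13661 genes. The fit was tested on simulated data. Groups were called overlapping from the deposited TPM.

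The members, lists and tests were chosen with earlier results of these data known. Every member was named. Up to 4 genes with the smallest p per list were candidates for naming, and some of these are not named. Gene positions are from GENCODE and promoters from RefSeq, matched by sequence to GRCm39 with Python 3.11.15. Figures were drawn with matplotlib 3.10.9. The alternatives were RLE scaling, no scaling, no filter, a filter at a mean of 5 TPM, pseudocounts of 0.1 and 0.5, no trend, only the groups compared, a replicate block, each library left out, and both NRF2 KO CM replicate 3 libraries left out. A few of the marker genes and motifs examined are not reported here.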

Additional observations from a re-analysis of the deposited data

Results flagged for a closer look

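The effect of CDDO-Me (CDDO-Me minus vehicle, log2 scale) differed between media for 6 members, by limma interaction contrasts adjusted over 13661 genes. For the receptor chains the effect was larger in WT CM than in media by 1.45 for Il4ra, 1.65 for Il13ra1 and 2.33 for Il2rg. In KEAP1 KO CM it was larger than in media by 1.31 for Il4ra, 1.71 for Il13ra1 and 2.56 for Il2rg. Against NRF2 KO CM, the effect in WT CM was larger by 1.23 for Il4ra, 1.38 for Il13ra1 and 1.86 for Il2rg. For the transcription factors the difference was negative. In WT CM minus media it was -2.67 for Egr2, -1.82 for Klf4 and -1.21 for Pparg, and in KEAP1 KO CM minus media it was -2.56 for Egr2, -1.75 for Klf4 and -1.43 for Pparg. In WT CM minus NRF2 KO CM it was -2.25 for Egr2, -1.74 for Klf4 and -0.83 for Pparg. These 18 adjusted p-values lay between 1.01e-06 and 0.00125, and the 3 contrasts share libraries. For Egr2 the effect itself was above 0 in media and NRF2 KO CM and below 0 in WT CM and KEAP1 KO CM.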

How the results depend on the processing

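Of 125 differences of single members that were followed, 81 were past the threshold, and 2 reversed their sign, both for Il4. Without NRF2KO_vehicle replicate 3 the Il4 difference of NRF2 KO CM from media under vehicle became 0.063 (leaving out 1 library each gave -1.03 to 0.063), and that of WT CM from NRF2 KO CM became -0.358 (range -0.358 to 0.729). Leaving out both NRF2 KO CM replicate 3 libraries gave 0.063 and -0.359. With only the compared groups in the fit, the members called fell from 6 to 1 for WT CM against NRF2 KO CM, from 5 to 2 for KEAP1 KO CM against NRF2 KO CM and from 2 to 0 for CDDO-Me in NRF2 KO CM, and 143 to 170 of all genes were called there instead of 1235 to 1449. The cause was not tested. For CDDO-Me in NRF2 KO CM, leaving out 1 library gave 1 to 3 members, with 1 without NRF2KO_vehicle replicate 1 or NRF2KO_CDDOMe replicate 2. In all other comparisons, leaving out 1 library kept the count of members within 1.5 times. For Il4, the difference of KEAP1 KO CM from media under CDDO-Me was lost in 5 of the omissions of 1 library (all 3 KEAP1KO_CDDOMe libraries and media_CDDOMe replicates 1 and 3; adjusted p up to 0.142), and that of WT CM from NRF2 KO CM in 4 (WT_CDDOMe replicates 2 and 3, NRF2KO_CDDOMe replicates 1 and 3; up to 0.129). Under CDDO-Me, Kdm6b in WT CM against media was lost in 4 omissions (media_CDDOMe replicates 1 and 2, WT_CDDOMe replicates 1 and 3, up to 0.14) and in KEAP1 KO CM against media in 1 (KEAP1KO_CDDOMe replicate 3, 0.0602). Pparg in WT CM against NRF2 KO CM was lost in 4 (WT_CDDOMe replicates 1 and 2, NRF2KO_CDDOMe replicates 1 and 3, up to 0.132). Over all 16 alternatives, these calls held in 10 and 11 for Il4, 10 and 15 for Kdm6b and 11 for Pparg, in the order given. RLE scaling and no trend ended no member's call.

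Same-numbered libraries deviated together from their group means on average (mean r 0.26), and 22 of 24 libraries correlated best with their own number. This is a hint from the data, but only 71 of 84 pairs exceeded 0.1. The mean r of -0.12 for different numbers is no independent reference, because deviations from a group mean cancel within each group. A replicate block raised the members called for NRF2 KO CM against media under CDDO-Me from 0 to 2 (Il4ra and Pparg, adjusted p = 0.0321 and 0.0397) and ended no member's call. It added 6 other calls, namely Il2rg in WT CM against media under vehicle (0.0321), Il13ra1 in KEAP1 KO CM against media under vehicle (0.0429) and with CDDO-Me in NRF2 KO CM (0.0233), Il4 in WT CM against media under CDDO-Me (0.0449), Kdm6b in WT CM against NRF2 KO CM under CDDO-Me (0.0234) and the Kdm6b effect of CDDO-Me in KEAP1 KO CM against media (0.0304). It raised the genes called for WT CM against media under vehicle from 988 to 1743. Without both NRF2 KO CM replicate 3 libraries that count was 2590, and this setting added 6 member calls and ended 0. Only the compared groups in the fit added 5 member calls and ended 12. Over all alternatives, Il2rg in WT CM against media under vehicle was called in 3 of 16, at adjusted p down to 0.00871. Il4 with CDDO-Me in media was called in 2 of 16, down to 0.00659. Depth is unknown, so low values such as those of Il13 and Ppargc1b could not be given a counting error.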
